A study of Arabidopsis thaliana with 6 samples.

Results

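The transcripts that gave the brightest readings in young leaves harvested at night's end, just before the light came on, were taken as the probe sets whose deposited log2 value lay at or above a threshold of 0.5 over 10 on all 6 arrays, which is a signal of 1448 on the linear scale. Control probe sets were left out. A probe set is the group of short oligonucleotides by which the Affymetrix ATH1 array reads a transcript. The rule held for 28 of 22746 probe sets, or 0.123%. Of the 6 arrays, 3 were hybridised with RNA of the Arabidopsis T-DNA insertion mutant bzip63-2 (line H3-2, FLAG_610A08) and 3 with RNA of Wassilewskija (Ws), the wild type in which the insertion lies. All plants were 25 d old and grown at 22°C in short days (10 h light, 14 h dark), and each array carried RNA from the 4 youngest leaves of 5 pooled plants, to which the methods add the shoot apical meristem. The mutant was represented by this 1 insertion line, with no complemented line on the arrays.

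The bZIP63 probe set itself, named through the study's supplementary list, read 8.65, 8.55 and 8.78 (log2) in the arrays labelled bzip63-2, against 5.32, 5.51 and 5.91 in the Ws arrays. The mutant thus had the higher value. The position of its oligonucleotides with respect to the T-DNA was not analysed here, and every direction below rests on the labels. The values came from robust multi-array average (RMA) processing, with array medians of 2.61 to 2.62 and a floor of 2.47 that all arrays shared. On each array, 39.4% to 42.2% of all readings were within 0.05 of that floor.

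Most of what a leaf cell transcribes at high level serves photosynthesis and protein synthesis. Photosynthesis draws on 2 genomes: the plastid genome encodes core subunits of the photosystems, the ATP synthase and the large subunit of Rubisco, while the nucleus encodes antenna proteins, further subunits and most enzymes of carbon fixation. The plastid also has ribosomes of its own, whose proteins are likewise shared between both genomes. Many nuclear photosynthesis genes follow the circadian clock, so that their transcripts change in level around dawn.

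The platform annotation gave 7 of the 28 members 1 gene, gave 2 members several genes and did not list 19, so 67.9% of the members are known here by probe set only, against 38.4% of all probe sets. The 9 named members were RCA, PSAE-1, LHCB4.1 and AT2G26500 of the nuclear genome, atpE, atpB, rps4 and rpl2 of the plastid genome, and a probe set shared by 4 nuclear loci, AT1G07940, AT1G07930, AT1G07920 and AT5G60390. Of the members, 7 were of the type marked _s_at, whose oligonucleotides can match several related transcripts. That was 25% of the members, whereas 4.66% of all probe sets were of this or a similar shared type.

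The rule chose on measured level, so high values are a description and not a result. The lowest member reading was 10.505, for probe set 255435_at in Ws replicate 1, and the highest was 12.519. Just outside the threshold lay 261197_at, with 10.485 as its lowest reading, 259161_at with 10.43 and 265374_at with 10.423. AT5G20290 was left out by 1 array, Ws replicate 3, at 10.369, although its mean over the arrays was 10.65. On each array alone, the 28th brightest probe set read between 10.55 and 10.70, and 24 of the members were among the 28 brightest of every array.

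A bright reading need not mean an abundant transcript, because probe sets differ, among other things, in how strongly their oligonucleotides bind. The plastid genes rbcL, for the large subunit of Rubisco, and psbA, for the D1 protein of photosystem II, are known for very abundant leaf transcripts. The rbcL probe set read 6.02, 5.64 and 5.56 in the arrays labelled bzip63-2, against 5.93, 5.78 and 6.06 in the Ws arrays. The psbA probe set read 7.35, 7.51 and 7.42 in the arrays labelled bzip63-2, against 7.36, 7.31 and 7.75 in the Ws arrays. Both thus lay far below the threshold, for a cause that was not tested. The members are therefore called the brightest probe sets here, with no order of abundance among them.

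**Figure D1:**
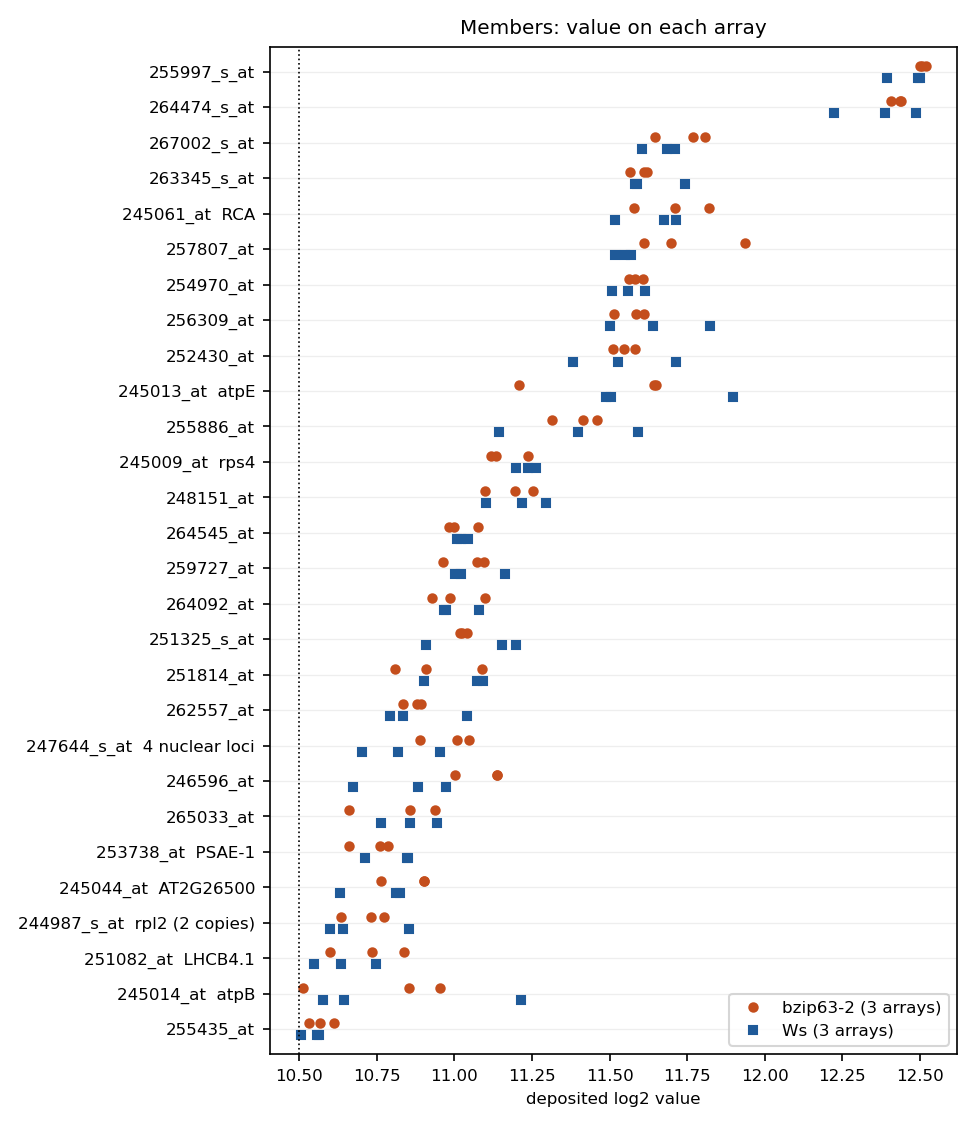
Deposited log2 value (horizontal axis) of each of the 28 members on each array, members ordered from the highest to the lowest minimum; circles are the 3 arrays labelled bzip63-2, squares the 3 Ws arrays, and the dotted line is the threshold. The genotypes overlap for 26 of the members, and for 257807_at and 246596_at the arrays labelled bzip63-2 all lie above the Ws arrays.

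Among nuclear photosynthesis genes, RCA encodes Rubisco activase, which frees the active site of Rubisco from inhibitory sugar phosphates. RCA read 11.58, 11.71 and 11.82 in the arrays labelled bzip63-2, against 11.52, 11.71 and 11.68 in the Ws arrays. The genotypes overlapped, with a log2 difference of 0.07 (standard error 0.09, 95% interval -0.17 to 0.30 from limma) and an adjusted p of 0.80. All differences are given as the arrays labelled bzip63-2 minus Ws, and adjusted p-values are from limma with Benjamini-Hochberg adjustment over all 22746 probe sets.

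PSAE-1 encodes a subunit on the stromal side of photosystem I. It read 10.66, 10.79 and 10.76 in the arrays labelled bzip63-2, against 10.71, 10.85 and 10.85 in the Ws arrays. These values overlapped, and the log2 difference was -0.07 (standard error 0.06, 95% interval -0.22 to 0.09, adjusted p = 0.74 from limma). LHCB4.1 encodes the minor antenna protein CP29, which sits between the core of photosystem II and its main light-harvesting complexes. It read 10.60, 10.73 and 10.84 in the arrays labelled bzip63-2, against 10.55, 10.63 and 10.75 in the Ws arrays, a log2 difference of 0.08 (standard error 0.09, adjusted p = 0.75 from limma). In both genotypes replicate 3 was the highest array, and the genotypes overlapped. AT2G26500, for which the tables used here give no name, read 10.90, 10.76 and 10.90 in the arrays labelled bzip63-2, against 10.83, 10.63 and 10.81 in the Ws arrays (log2 difference 0.10, adjusted p = 0.74 from limma).

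RCA, PSAE-1 and LHCB4.1 belong to a larger group, in which AT2G26500 is not counted. The annotation names 13 nuclear probe sets of this group, picked by symbol among those with 1 gene. They are for antenna proteins, photosystem subunits, the plastid ATP synthase gamma subunit and the Calvin cycle enzymes RCA, PRK and SBPASE. Genes listed under other symbols were not counted, and ATPC2 averaged 2.99 over the 6 arrays, near the floor. None of the 13 passed the adjusted threshold, 5 had a positive and 8 a negative log2 difference, and their median was -0.01, against 0.00 over all probe sets. ATPC1, for a gamma subunit of the plastid ATP synthase, was the 1 probe set with an unadjusted p under 0.05, and its adjusted p was 0.42 from limma. A count of 1 in 13, or 7.69%, is close to the 6.37% of all probe sets that passed this threshold. There was no overlap for 2 of these probe sets, or 15.4%, ATPC1 lower and PRK higher, where 10.0% of all probe sets did not overlap. That background includes probe sets near the floor. In bands of means between 3 and 10 the share ran from 12.8% to 27.6%. The mean of ATPC1 was 9.05 in the arrays labelled bzip63-2 and 9.19 in the Ws arrays. PRK, the phosphoribulokinase that regenerates the substrate of Rubisco, averaged 9.37 in the arrays labelled bzip63-2 and 9.19 in the Ws arrays (adjusted p = 0.74 from limma). The LHCB4 family was spread over the scale: LHCB4.2 averaged 9.15 in the arrays labelled bzip63-2 and 9.16 in the Ws arrays, and LHCB4.3 averaged 5.74 in the arrays labelled bzip63-2 and 5.49 in the Ws arrays, levels that are not comparable between probe sets.

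Of the 4 plastid-encoded members, atpB and atpE encode the beta and epsilon subunits of the catalytic part of the plastid ATP synthase. They are neighbours on the plastid genome, where atpB also lies next to rbcL. The atpB probe set read 10.95, 10.86 and 10.51 in the arrays labelled bzip63-2, against 10.58, 10.64 and 11.21 in the Ws arrays. The atpE probe set read 11.65, 11.64 and 11.21 in the arrays labelled bzip63-2, against 11.49, 11.51 and 11.90 in the Ws arrays. For both genes the lowest of all 6 readings was bzip63-2 replicate 3 and the highest was Ws replicate 3. The ranges of 0.70 for atpB and 0.69 for atpE were the widest among the members, and no other member had a range above 0.5.

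Neither gene differed between the genotypes beyond this spread. The log2 difference was -0.04 for atpB (standard error 0.23, adjusted p = 1 from limma) and -0.13 for atpE (standard error 0.19, adjusted p = 0.84 from limma). Both directions rested on single arrays. Without Ws replicate 3 the difference of atpB was 0.16 and that of atpE was 0.0045, and without bzip63-2 replicate 3 they were 0.09 and 0.02.

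The other plastid-encoded members belong to the plastid ribosome. The rps4 gene, for protein S4 of the small subunit, read 11.13, 11.24 and 11.12 in the arrays labelled bzip63-2, against 11.24, 11.26 and 11.20 in the Ws arrays. Its range over the 6 arrays was 0.145, against 0.70 for atpB, and its log2 difference was -0.07 (standard error 0.04, adjusted p = 0.74 from limma). The rpl2 gene, for protein L2 of the large subunit, is present as 2 copies on the plastid genome, which the probe set reads together. It read 10.77, 10.73 and 10.63 in the arrays labelled bzip63-2, against 10.64, 10.60 and 10.85 in the Ws arrays. Ws replicate 3 was its highest array, and its log2 difference was 0.02 (adjusted p = 1 from limma).

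Other plastid-encoded transcripts, mainly the brighter ones, shared the array pattern of atpB and atpE. The annotation lists 77 plastid-encoded probe sets, of which 46 had a mean above 5, a limit chosen after the values were seen. Of these 46, 42 were highest in Ws replicate 3, which was 91.3% of them, against 17.1% of the 2125 other probe sets above the same limit. For 28 of the 46, or 60.9%, bzip63-2 replicate 3 was the lowest array, against 11.9% of the other probe sets. Both held together for 27 of the 46. Over all 77 probe sets, 57 were highest in Ws replicate 3, 34 were lowest in bzip63-2 replicate 3 and 31 were both. Of the 31 with a mean of 5 or less, 15 were highest in Ws replicate 3, another 15 were highest in bzip63-2 replicate 1, and 4 had the full pattern of atpB and atpE. Over the 46 brighter probe sets the median deviation from the probe set's own mean was 0.18, -0.11 and -0.30 in bzip63-2 replicates 1, 2 and 3, and -0.09, -0.04 and 0.39 in Ws replicates 1, 2 and 3. The arrays of highest and lowest plastid readings were thus of different genotypes, while each genotype also held an array on the other side of the mean.

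The probe sets that were not highest in Ws replicate 3 were rps4, psbF, ndhD and rpl36. Among the plastid-encoded members, rps4 therefore stood apart from atpB, atpE and rpl2, although the genes beside it on the plastid genome, ycf3 and ndhJ, were highest in Ws replicate 3. Of the 15 probe sets for plastid ribosomal proteins with a mean above 5, 13 were highest in Ws replicate 3. The median pooled SD within genotypes was 0.29 over the 46 plastid-encoded probe sets and 0.12 over the other probe sets above the limit.

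Of the 77 plastid-encoded probe sets none reached the adjusted threshold in limma, and 1, or 1.30%, reached an unadjusted p under 0.05, against 6.37% of all probe sets. This was rpl36, for protein L36 of the large ribosomal subunit, the 1 plastid-encoded probe set whose genotypes did not overlap, with means of 7.38 in the arrays labelled bzip63-2 and 7.73 in the Ws arrays (adjusted p = 0.55 from limma). Over the 46, the median log2 difference was -0.15, which changed to 0.01 without Ws replicate 3 and to -0.04 without bzip63-2 replicate 3. Control probe sets for ribosomal RNA also varied between arrays of a genotype. The 5S ribosomal RNA control read 4.42, 2.93 and 2.98 in the arrays labelled bzip63-2, against 2.83, 3.40 and 4.27 in the Ws arrays, so that bzip63-2 replicate 1 and Ws replicate 3, on which the median plastid reading was above the mean, were its highest arrays. The 25S control read 7.60, 7.49 and 7 in the arrays labelled bzip63-2, against 7.32, 6.91 and 7.49 in the Ws arrays. The difference between 3′ and 5′ control probe sets, a measure of RNA integrity, was available for 5 control pairs. For 1 of them, a ubiquitin pair, it was 0.382, 0.474 and 0.498 in the arrays labelled bzip63-2, against 0.561, 0.361 and 0.667 in the Ws arrays, highest in Ws replicate 3. For a GAPDH pair it was 0.332, 0.553 and 0.228 in the arrays labelled bzip63-2, against 0.447, 0.398 and 0.455 in the Ws arrays, lowest in bzip63-2 replicate 3. In the other 3 pairs Ws replicate 3 was not the highest and bzip63-2 replicate 3 was not the lowest array. The part of these quantities in the plastid pattern was not tested.

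**Figure D2:**
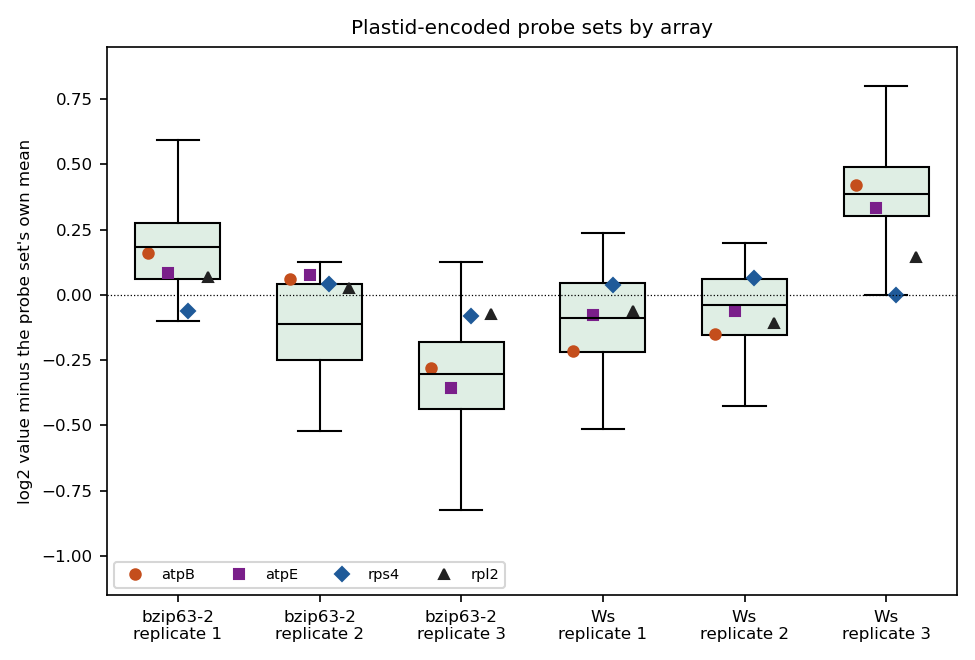
Log2 value minus the probe set's own mean over 6 arrays (vertical axis) for each array, the 3 labelled bzip63-2 on the left and the 3 Ws arrays on the right. Boxes give the quartiles and median of 46 plastid-encoded probe sets with a mean above 5, whiskers their full range, and symbols the 4 plastid-encoded members; atpB and atpE follow the boxes, highest in Ws replicate 3 and lowest in bzip63-2 replicate 3, whereas rps4 stays near 0.

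The member shared by 4 nuclear loci, 247644_s_at, had one of the larger differences. It read 11.01, 11.05 and 10.89 in the arrays labelled bzip63-2, against 10.82, 10.95 and 10.70 in the Ws arrays, so the genotypes overlapped by 1 array on each side. The log2 difference was 0.16 (standard error 0.08, 95% interval -0.06 to 0.38, adjusted p = 0.74 from limma). The readings of the 4 loci cannot be told apart.

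Of the 19 unlisted members, a pair read at the top of the scale. Probe set 255997_s_at read 12.52, 12.51 and 12.50 in the arrays labelled bzip63-2, against 12.39, 12.50 and 12.49 in the Ws arrays. Probe set 264474_s_at read 12.44, 12.44 and 12.41 in the arrays labelled bzip63-2, against 12.22, 12.39 and 12.49 in the Ws arrays. Both had their lowest reading in Ws replicate 1, and both can match several transcripts. The other 17 unlisted members had means between 10.56 and 11.70.

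There were 2 members whose genotypes showed no overlap, both unlisted and both higher in the arrays labelled bzip63-2; they are named here after their values were seen. Probe set 246596_at read 11.001, 11.14 and 11.14 in the arrays labelled bzip63-2, against 10.67, 10.97 and 10.88 in the Ws arrays. The gap between the nearest arrays was small against the spread within Ws. The log2 difference of 0.25 (standard error 0.09, 95% interval -0.0036 to 0.50) is 1.19-fold, with an adjusted p of 0.74 from limma. Ws replicate 1 was the lowest array, and without it the difference was 0.165. Probe set 257807_at read 11.61, 11.70 and 11.94 in the arrays labelled bzip63-2, against 11.52, 11.55 and 11.57 in the Ws arrays, a log2 difference of 0.20 (standard error 0.09, 95% interval -0.05 to 0.45, adjusted p = 0.74 from limma). Here bzip63-2 replicate 3 stood above the other readings, and without it the difference was 0.11.

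The number of members without overlap, 2 of 28 or 7.14%, can be read against all probe sets, where 10.0% did not overlap between the genotypes, 6.81% higher and 3.23% lower. It is thus not above the background. The members with the smallest ranges were all unlisted. Probe set 264545_at, with the narrowest range, read 10.999, 10.98 and 11.08 in the arrays labelled bzip63-2, against 11.01, 11.05 and 11.02 in the Ws arrays. Its range over the 6 arrays was 0.094, and the ranges of 254970_at and 255435_at were 0.106 and 0.107.

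Over all 28 members, the mean was higher in the arrays labelled bzip63-2 for 14 and lower for 14, with a median log2 difference of 0.0015. The differences ran from -0.13 for atpE to 0.25 for 246596_at, and 24 of the 28 were smaller than 0.1 in size. For 21 members the difference was smaller than the pooled SD within genotypes. No member passed an adjusted p under 0.05 from limma, with adjusted p between 0.74 and 1, and none had an unadjusted p under 0.05. Over all probe sets, 0% passed the adjusted and 6.37% the unadjusted threshold, 4.33% higher and 2.04% lower. The bZIP63 probe set, with a log2 difference of 3.08, was thus not called either. The adjusted count of this fit therefore says little about whether a member differed. Leaving the dim probe sets out of the fit did not change the adjusted count of the members. Among the 8242 probe sets with means over 3, 0.692% passed the adjusted and 16.0% the unadjusted threshold, against 0 and 1 of the members. Among the 4126 with means over 4 these shares were 2.62% and 18.7%, again against 0 and 1 of the members. With quantile normalization repeated, 3 members passed the unadjusted threshold, against 7.77% of all probe sets. A count of 1 of 28 lies below the backgrounds of the filtered fits, and 3 of 28 lies near that of the repeated normalization.

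A test that is not passed does not show equal levels, and the intervals give what the 3 arrays per genotype allow. The 95% interval from limma lay between -0.5 and 0.5 for 25 members, which is a 1.41-fold change either way, and between -1 and 1 for all 28. The exceptions at 0.5 were atpB, atpE and 246596_at. For 1 probe set alone, the smallest two-sided p that an exact permutation of 3 against 3 arrays allows is 0.10. Whether 2 genotypes differ by less RNA per cell or by fewer cells of a type cannot be told apart in pooled leaves.

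**Figure D3:**
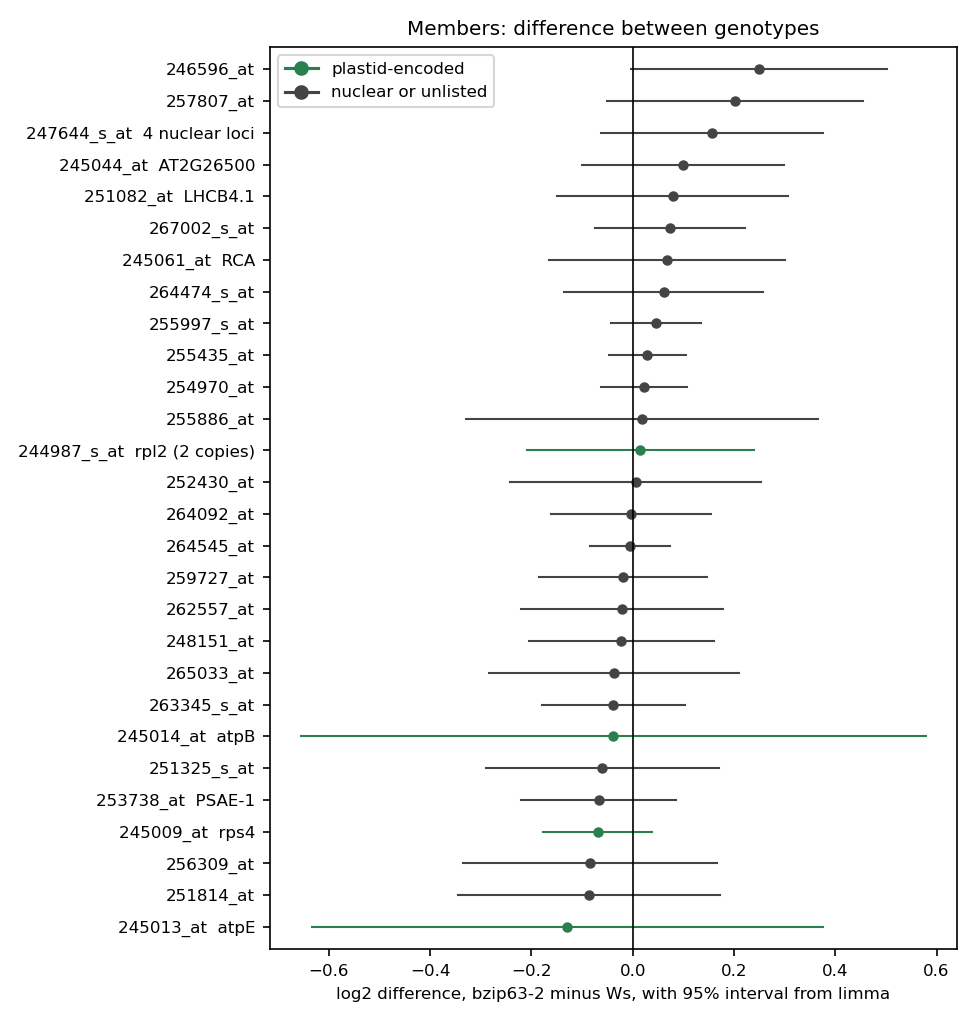
Log2 difference between the arrays labelled bzip63-2 and the Ws arrays (horizontal axis; points) with its 95% interval from limma (lines) for the 28 members, ordered by difference. All intervals include 0; the widest are those of the plastid-encoded atpB and atpE.

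The arrays themselves did not share the members' extremes evenly. Ws replicate 1 was the lowest array for 10 of the 28 members and the highest for none, whereas it was lowest for 19.3% and highest for 12.5% of the 2143 other probe sets with a mean above 5. Ws replicate 3 was the highest array for 10 members and bzip63-2 replicate 3 for 8, against 18.5% and 22.7% of the same other probe sets. The 8 included RCA, LHCB4.1, 257807_at and 246596_at, the last with 11.138 there and 11.137 in bzip63-2 replicate 2. Lowest in bzip63-2 replicate 3 were 4 members, atpB, atpE, rps4 and the unlisted 263345_s_at. The median reading over the members was 11.02, 11.12 and 11.11 in the arrays labelled bzip63-2, against 11.01, 11.09 and 11.16 in the Ws arrays, so the arrays overlapped.

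Spread within a genotype changed little with level, while the size of the difference between genotypes became smaller at the top. The median pooled SD was 0.10 over the members, against 0.12 in the band of means between 5 and 6, which held 1039 probe sets, and 0.11 in the band between 9 and 10, which held 109. The median size of the log2 difference was 0.05 over the members, against 0.12 and 0.07 over the same bands. The share without overlap was 27.3% in the lower and 12.8% in the upper of these bands, but 20% among the 25 probe sets with means between 10 and the threshold and 18.4% in the band between 3 and 4, so it did not change evenly with level. The rule asks for a high value on every array, so it can leave out probe sets near the threshold that vary more. With the same threshold set on the mean in place of every array, 31 probe sets were taken, 3 of them without overlap. Their median pooled SD was 0.096, not above the 0.101 of the members. Among the members, the pooled SD was 0.10 (median) over the 24 not known as plastid-encoded, none of them above 0.17, and reached 0.30 for atpB.

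**Figure D4:**
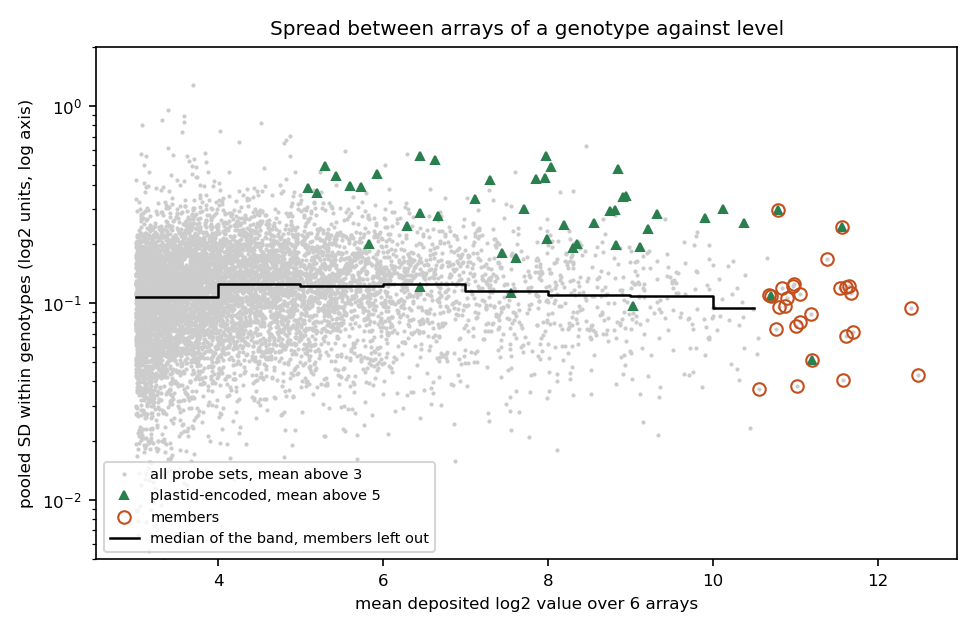
Pooled SD within genotypes (vertical axis, log scale) against the mean log2 value over the 6 arrays (horizontal axis) for probe sets with a mean above 3 (grey dots), plastid-encoded probe sets with a mean above 5 (triangles) and members (open circles); the black line is the median of each band, members left out. Most members lie near the level of the line, which ends at the threshold, and atpB and atpE lie above it, as do most other plastid-encoded probe sets.

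Of 28 cell type markers, 3 had a usable named probe set, too few to check the tissue label. RCA, of mesophyll, was a member, and the rule had chosen it for its level. CLV3, of the central zone of the shoot meristem, read 2.469, the floor, on all 6 arrays. This gives no sign of the meristem that the methods add, and does not show that it was absent. FMA, of the guard cell lineage, read 2.90, 2.87 and 2.93 in the arrays labelled bzip63-2, against 2.79, 2.75 and 2.85 in the Ws arrays, near the floor. Other markers, and the reference genes ACT2 and PP2AA3, were not analysed here.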

How the data were processed

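RNA of young leaves was hybridised to Affymetrix ATH1 arrays, 3 per genotype, from separate pools of plants. The authors made the deposited log2 values, 1 per probe set and array, by RMA in Affymetrix Expression Console, whose version was not stated; the log2 scale was inferred from the range of the values. RMA equalises the distributions of the arrays, which limits a common shift of the brightest probe sets between arrays. The number of arrays limits the precision.

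After 64 control probe sets had been left out, bzip63-2 minus Ws was fitted on 22746 probe sets in limma 3.58.1 (R 4.3.3; lmFit, then eBayes), without a filter or block. Members had at least 10.5 on all 6 arrays. Calls were made at 0.05 after Benjamini-Hochberg adjustment; an unadjusted p under 0.05 was an alternative, as the methods give this limit and name no adjustment. Pooled SD is over both genotypes. The fit was tested on simulated data.

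Probe sets were named by the platform annotation, with symbols of the TAIR10.1 RefSeq table (13513 with 1 gene, 503 with several, 8730 unlisted). The named genes were, by rule, the members with 1 gene, chosen for level, difference, range and function, and bZIP63; all other probe sets were named after their values were seen. Members and lists were chosen with earlier results of these data known. No sequences or promoters were used here. Same-numbered arrays did not deviate together (correlations of -0.04, 0.02 and 0.05 over 8242 probe sets), so the numbers were not taken as pairs. Alternatives covered the threshold, dim probe sets, variance prior, array weights, normalization, controls, shared probe sets, the replicate block and each array left out.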

Additional observations from a re-analysis of the deposited data

Results flagged for a closer look

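A control probe set outside the members and outside the test, of the group whose names begin with AFFX-r2-At, read 3.92, 3.73 and 3.96 in the arrays labelled bzip63-2, against 2.58, 2.59 and 2.52 in the Ws arrays. Its log2 difference was 1.30, with all 3 arrays labelled bzip63-2 above every Ws array, and in the fit that kept the control probe sets its adjusted p was 0.098 from limma. What this control reads is not given in the sources used here. No other of the 64 control probe sets had a log2 difference above 1 in size.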

How the results depend on the processing

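No member was called at an adjusted p under 0.05 from limma under any of the alternatives run. This also held for the 11 probe sets followed one by one, 9 named and 2 without overlap, whose lowest adjusted p under an alternative was 0.088. The count over all probe sets was 0 as planned, 57 with means of 3 or less left out, 108 with means of 4 or less left out, 610 with the arrays centred on the members, 1449 at an unadjusted p under 0.05, and 0 to 34 with 1 array left out, 34 being without Ws replicate 3. Centring shifts the floor of each array apart; the cause of the other changes was not tested. Members with an unadjusted p under 0.05 were 0 as planned, 1 with either filter on dim probe sets and 1 with the trend prior (6.55% of all probe sets). They were 1 with array weights (6.04%), 2 with the arrays centred on the members (10.2%) and 3 with quantile normalization repeated. With 1 array left out they were 0 to 2, against 5.29% to 8.59% of all probe sets. With the replicate block 5 of 28 members had an unadjusted p under 0.05, a larger share than the 6.88% of all probe sets. That background includes the dim probe sets. In the fits without a block it was 16.0% and 18.7% where means of 3 or less and of 4 or less were left out. The block changed no adjusted call among the results given here. Members without overlap were 2 of 28 as planned, 5 of 46 (10.9%) at a threshold of 10, 1 of 13 at a threshold of 11 and 3 of 31 by the mean, against 10.0% of all probe sets. With 1 array left out they were 3 to 5. The share of all probe sets is not given for that setting, where fewer arrays make a lack of overlap easier. The median log2 difference of the members stayed between -0.01 and 0.04, and their median pooled SD between 0.08 and 0.11, with 1 array left out. The difference of rpl2 was -0.0034 with quantile normalization repeated and -0.034 to 0.0925 with 1 array left out. That of atpE ran between -0.20 and 0.0163, and that of atpB between -0.16 and 0.16, with 1 array left out.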

Other observations

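With the threshold lowered to 10 on all 6 arrays, 18 further probe sets were taken, of which the annotation names 5, psbM, PSAN, AT1G74470, AT4G39200 and AT5G20290. The plastid gene psbM, for a small subunit of photosystem II, read 10.39, 10.29 and 10.20 in the arrays labelled bzip63-2, against 10.30, 10.22 and 10.86 in the Ws arrays. It was highest in Ws replicate 3 and lowest in bzip63-2 replicate 3, as were atpB and atpE. PSAN, a lumenal subunit of photosystem I, averaged 10.39 in the arrays labelled bzip63-2 and 10.40 in the Ws arrays (log2 difference -0.015, adjusted p = 1 from limma). AT1G74470, annotated as geranylgeranyl reductase, an enzyme that makes the side chain of chlorophyll, read 10.33, 10.36 and 10.47 in the arrays labelled bzip63-2, against 10.15, 10.28 and 10.28 in the Ws arrays. Its genotypes did not overlap, but the log2 difference of 0.145 did not pass the threshold (adjusted p = 0.74 from limma). A lack of overlap was found for 3 of the 18 added probe sets (16.7%, against 10.0% of all probe sets). In bands of means between 3 and 10, members left out, this share ran from 12.8% to 27.6%.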
